A study of Bos taurus with 4 samples.

Results

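Vascular smooth muscle nuclei were taken from single-nucleus RNA sequencing of cattle fat as the nuclei that carried transcripts of contractile smooth muscle genes. A nucleus was kept if it had at least 200 detected genes. It was called a smooth muscle nucleus if it held at least 1 UMI (a counted RNA molecule) of at least 2 of the 7 markers MYH11, ACTA2, CNN1, ACTG2, LMOD1, KCNAB1 and PDZRN4, of which 1 had to be MYH11 or CNN1. It also had to hold 0 UMIs of PECAM1, PDGFRA and CSF1R, which mark endothelial cells, fibroblasts and macrophages. The rule chose 228 of the 7009 kept nuclei of the subcutaneous libraries, 62 of 881 in animal 1 and 166 of 6128 in animal 2, out of 8849 kept nuclei in the whole series.

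The series holds 4 libraries from 2 feedlot cattle, 1 of subcutaneous back fat and 1 of intramuscular fat from each animal, and no animal was treated. Breed, age and diet are not known, per the labels. The smooth muscle nuclei were compared with all other kept nuclei of the same library, 819 in animal 1 and 5962 in animal 2. They were also compared with pericyte marker nuclei, 15 in animal 1 and 23 in animal 2, which held UMIs of at least 2 of 10 pericyte markers (1 of them RGS5, KCNJ8 or ABCC9) and none of MYH11, CNN1 or the excluded genes. Endothelial marker nuclei, with at least 2 blood endothelial markers (1 of them PECAM1 or VWF) and none of MYH11, CNN1, PDGFRA or CSF1R, numbered 117 and 172 and serve below as a level of background RNA.

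Vascular smooth muscle forms the wall of arteries and veins outside the endothelium and sets the calibre of the vessel. Calcium entering the cytoplasm activates myosin light chain kinase, which phosphorylates the regulatory light chain of smooth muscle myosin and starts contraction, while nitric oxide relaxes the cell through cyclic GMP. The contractile genes are switched on by serum response factor with its partner myocardin, and signals of the Notch receptor NOTCH3, made in vascular mural cells, help to set their identity. Pericytes, the mural cells of capillaries, are the closest relatives of these cells.

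The smooth muscle nuclei held 56659 UMIs in animal 1 and 123255 in animal 2, with a median of 767 and 587 UMIs per nucleus. The medians over all other nuclei were 857 and 517. The libraries labelled subcutaneous were rich in muscle fibre RNA: genes of the skeletal contractile apparatus took 4.0% and 16.4% of UMIs in smooth muscle nuclei and 5.84% and 23.4% in all other nuclei, but 0.0239% and 0.0246% of the UMIs of other nuclei in the libraries labelled intramuscular. All statements on depots follow the labels as given. Fibre RNA thus lay in the libraries labelled subcutaneous and hardly in those labelled intramuscular, and whether the depot labels fit the tissue was not tested, which bears on every contrast between depots. In all, 5 barcodes were shared between libraries, none of them of a smooth muscle nucleus. Levels are in CPM, the UMIs of a gene per 1000000 UMIs summed over a class of nuclei in a library.

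The rule itself fixes the levels of its 7 markers, which are given as a description without a test. MYH11, the smooth muscle myosin heavy chain, stood at 4818 and 3756 CPM in smooth muscle nuclei of animals 1 and 2, against 124 and 85.2 CPM in all other nuclei. It was found in 60 of 62 and 152 of 166 smooth muscle nuclei, at a median of 2 and 1 UMIs and at most 22 and 33. ACTA2, smooth muscle alpha-actin, reached 2824 and 2815 CPM in smooth muscle nuclei and 119.6 and 123.0 CPM in all other nuclei. Thus MYH11 was carried by nearly every chosen nucleus, and most chosen nuclei also held ACTA2 (74.2% and 65.1%, against 12.8% and 15.1% of endothelial marker nuclei, at a median depth of 1094 and 823.5 UMIs). CNN1, the actin-binding protein calponin 1, had 1235 and 1209 CPM in smooth muscle nuclei, against 32.2 and 27.02 CPM in all other nuclei. ACTG2, the gamma-actin best known from visceral smooth muscle, had 459 and 559.8 CPM, against 16.6 and 15.7 CPM. LMOD1, an actin filament nucleator of smooth muscle, had 600.1 and 341 CPM, against 24.9 and 31.4 CPM in all other nuclei. KCNAB1, an auxiliary subunit of voltage-gated potassium channels, had 477 and 446 CPM in smooth muscle nuclei and 7.36 and 11.3 CPM in all other nuclei. PDZRN4 had 265 and 471 CPM, against 3.68 and 9.01 CPM. The 7 markers together took 1.07% and 0.960% of the UMIs of smooth muscle nuclei, against 0.0329% and 0.0303% of those of all other nuclei.

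**Figure D1:**
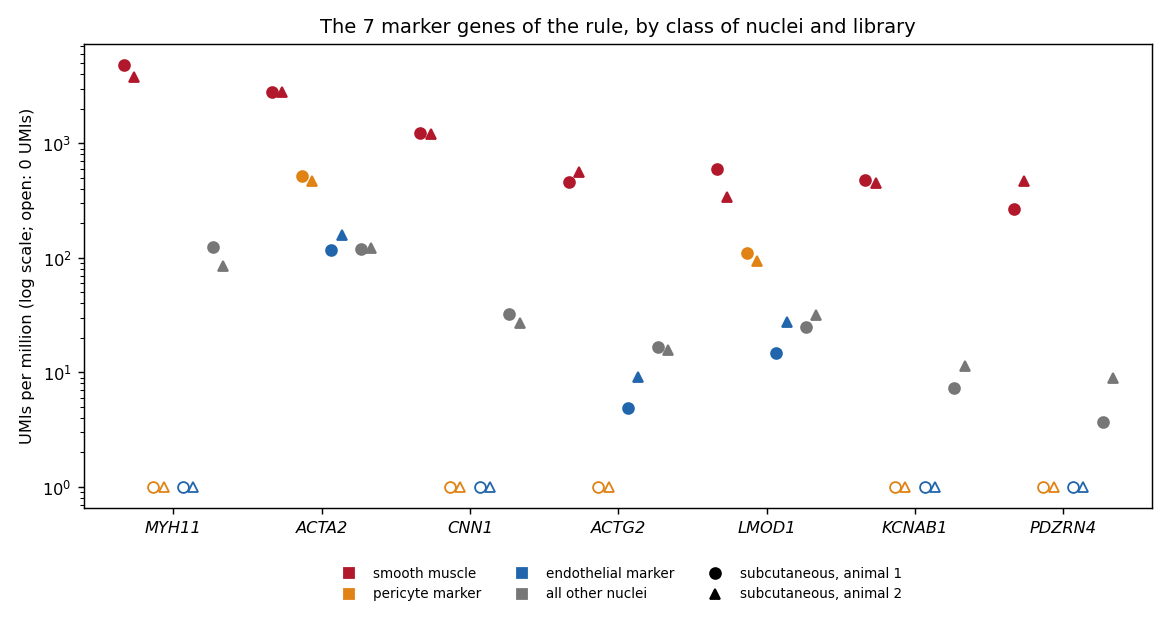
CPM (vertical log axis) of the 7 genes of the rule (horizontal axis) in the summed nuclei of each class, 1 point per subcutaneous library, with open symbols for 0 UMIs. Smooth muscle nuclei, left in each group, stand above the other classes for every gene, as the rule fixes, and the zeros of MYH11 and CNN1 in pericyte and endothelial marker nuclei are set by the rules of those classes.

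The threshold was close for many nuclei. Exactly 2 markers were held by 34 and 84 of the smooth muscle nuclei in animals 1 and 2, and 3 or more by 28 and 82. Just outside the rule were 54 and 353 nuclei with MYH11 or CNN1 as their only marker. A further 21 and 15 nuclei had enough markers but also held an excluded gene, most often PECAM1 (14 and 10 nuclei).

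All kept nuclei of the 4 libraries were also clustered. The clusters were made from the same counts, with the genes of the rule not left out. Where the chosen nuclei fall is thus a description and no independent check of the label. Of 18 clusters, 1 was led by KCNAB1, PDZRN4, RYR2, SLC6A17, NDRG4, ACTG2, MYH11, MYOCD, TNC and CNN1, and had all 7 markers of the rule among its 100 leading genes. It held 42 of 62 smooth muscle nuclei of animal 1 (67.7%) and 120 of 166 of animal 2 (72.3%), and no intramuscular nucleus. Of the nuclei with 3 or more markers it took 27 of 28 and 77 of 82, and of those with exactly 2 markers 15 of 34 and 43 of 84. The other 20 and 46 smooth muscle nuclei lay scattered over clusters led by genes of muscle fibres, endothelium, fibroblasts and others.

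**Figure D2:**
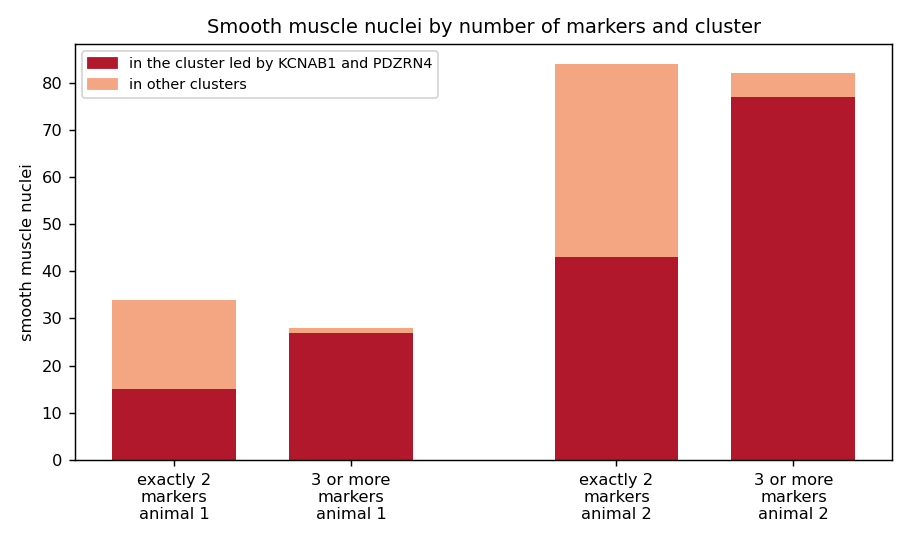
Number of smooth muscle nuclei (vertical axis) in each subcutaneous library, split by the number of markers held and by whether the nucleus fell in the cluster led by KCNAB1 and PDZRN4. Nearly all nuclei with 3 or more markers lie in that cluster (27 of 28 and 77 of 82), while those with exactly 2 markers are divided (15 of 34 and 43 of 84).

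Nuclei inside and outside that cluster differed in genes that the rule did not use. FLNA, which crosslinks actin filaments, had 12226 and 7999 CPM in smooth muscle nuclei inside the cluster, against 1377 and 341 CPM in those outside it. NOTCH3 had 26 and 40 UMIs inside and 0 and 2 UMIs outside. CSRP1 had 4210 and 2423 CPM inside and 306 and 97.3 CPM outside. The nuclei outside the cluster thus carried these genes at far lower levels, and skeletal contractile genes took 4.27% and 21.8% of their UMIs, against 3.86% and 13.7% inside. Conversely, 12 and 125 nuclei of the cluster did not meet the rule, and these are counted among all other nuclei below. The cluster was made from the same genes, so none of these differences has a test. The label smooth muscle thus matched the cluster of most but not all chosen nuclei, and nothing measured here tells vascular from other smooth muscle.

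Smooth muscle nuclei made up 7.04% of kept nuclei in the subcutaneous library of animal 1 (exact Clopper-Pearson 95% interval 5.44 to 8.93) and 2.71% in that of animal 2 (2.32 to 3.15). In the intramuscular library of animal 1 the same rule found 1 of 1777 nuclei, or 0.0563% (0.00142 to 0.313). In that of animal 2 it found 0 of 63, where a limit of 3 counts is a share of 4.76% and the upper bound of the exact interval is 5.69%. The intramuscular library of animal 1 held 241 endothelial and 28 pericyte marker nuclei. Per endothelial marker nucleus there were 0.530 and 0.965 smooth muscle nuclei in the subcutaneous libraries and 0.00415 in the intramuscular library of animal 1. This ratio depends on the filter: it was 0.366 and 0.423 in the subcutaneous libraries with at least 500 genes per nucleus, and 0.440 and 0.111 with at most 5% skeletal contractile RNA, so the order of the animals is not fixed. Over whole libraries MYH11 stood at 357 and 198 CPM in subcutaneous fat and at 6.62 CPM (18 UMIs) and 9.48 CPM (1 UMI) in intramuscular fat. The single intramuscular nucleus had 1 UMI each of CNN1 and KCNAB1, none of MYH11, and none of FLNA among 2868 UMIs. The rule was written with this pattern known, so the shares are a description, and the intervals cover counting error only. With each nucleus thinned to 300 UMIs the shares were 3.86% and 1.48% in the subcutaneous libraries and 0% in both intramuscular ones.

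The comparison with all other nuclei asked which genes beyond the rule marked the chosen nuclei. Of 8169 genes tested, 242 passed (2.96%), 184 of them higher (2.25%) and 58 lower (0.71%) in smooth muscle nuclei, by the quasi-likelihood test of edgeR on summed UMIs with the library as a block and Benjamini-Hochberg adjusted p under 0.05. Because the nuclei were chosen by contractile genes and the lists below were drawn up with results of these data known, a rise of related genes is not independent support for the label. The fit has 1 residual degree of freedom. Without the library block no gene passed with edgeR, and 245 had an unadjusted p under 0.05, against 906 with the block. Below, a fold change is the log2 of smooth muscle nuclei over the nuclei they are set against, with its standard error (SE), from 2 libraries.

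Contractile and cytoskeletal genes outside the rule rose more often than any other list drawn up. Of 27 tested, 15 rose and none fell, with a median log2 fold change of 1.63 against a median of -0.16 over all tested genes. FLNA had 8472 and 5444 CPM in smooth muscle nuclei, against 451 and 211 CPM in all other nuclei, a log2 fold change of 4.19 (SE 0.30, adjusted p = 3.0e-39). CSRP1, a LIM-domain protein of the actin cytoskeleton, had 2859 and 1647 CPM, against 288 and 98.8 CPM (3.42, SE 0.32, adjusted p = 2.11e-23). SMTN, smoothelin, found in contractile smooth muscle, had 1024 and 1071 CPM in smooth muscle nuclei and 83.8 and 60.5 CPM in all other nuclei. Both libraries thus stood at least 5 times above their other nuclei for each of these genes. The myosin regulatory light chain MYL9 had 1606 and 876 CPM, against 191 and 55.6 CPM in all other nuclei, and its kinase MYLK had 847 and 462 CPM, against 168 and 29.08 CPM. PPP1R14A, an inhibitor of myosin phosphatase, had 229 and 333 CPM in smooth muscle nuclei and 31.3 and 27.3 CPM in all other nuclei. TAGLN, which encodes transgelin (SM22), an abundant protein of smooth muscle, was counted at only 11 and 15 UMIs in smooth muscle nuclei, 194 and 122 CPM against 23.9 and 10.8 CPM (2.99, SE 0.55, adjusted p = 5.76e-06). The others that rose were ACTN1, PPP1R12A, CALD1, LPP, TLN1, PALLD, VCL and MYL6.

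Tropomyosins and desmin, which muscle fibres also make, did not pass over all nuclei. TPM2 had 6054 CPM in smooth muscle and 4694 CPM in other nuclei of animal 1, and 12632 and 14946 CPM in animal 2 (-0.21, SE 0.25, adjusted p = 0.878). TPM1 had 4183 CPM in smooth muscle and 2459 CPM in other nuclei of animal 1, and 13111 and 17546 CPM in animal 2 (-0.11, SE 0.26, adjusted p = 0.942). DES, the muscle intermediate filament desmin, was found in 79.0% and 97.6% of smooth muscle nuclei and in 34.2% and 89.5% of endothelial marker nuclei. Its level was 4324 and 8340 CPM in smooth muscle nuclei and 1954 and 9308 CPM in all other nuclei (0.21, SE 0.26, adjusted p = 0.886). Among nuclei with at most 5% skeletal contractile RNA, which leaves 4 smooth muscle nuclei in animal 2, TPM2 and DES passed as higher by edgeR (1.64, adjusted p = 0.00666, and 2.26, adjusted p = 0.000504), and TPM1 did not. The part of fibre RNA in the other values of these genes was not tested.

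**Figure D3:**
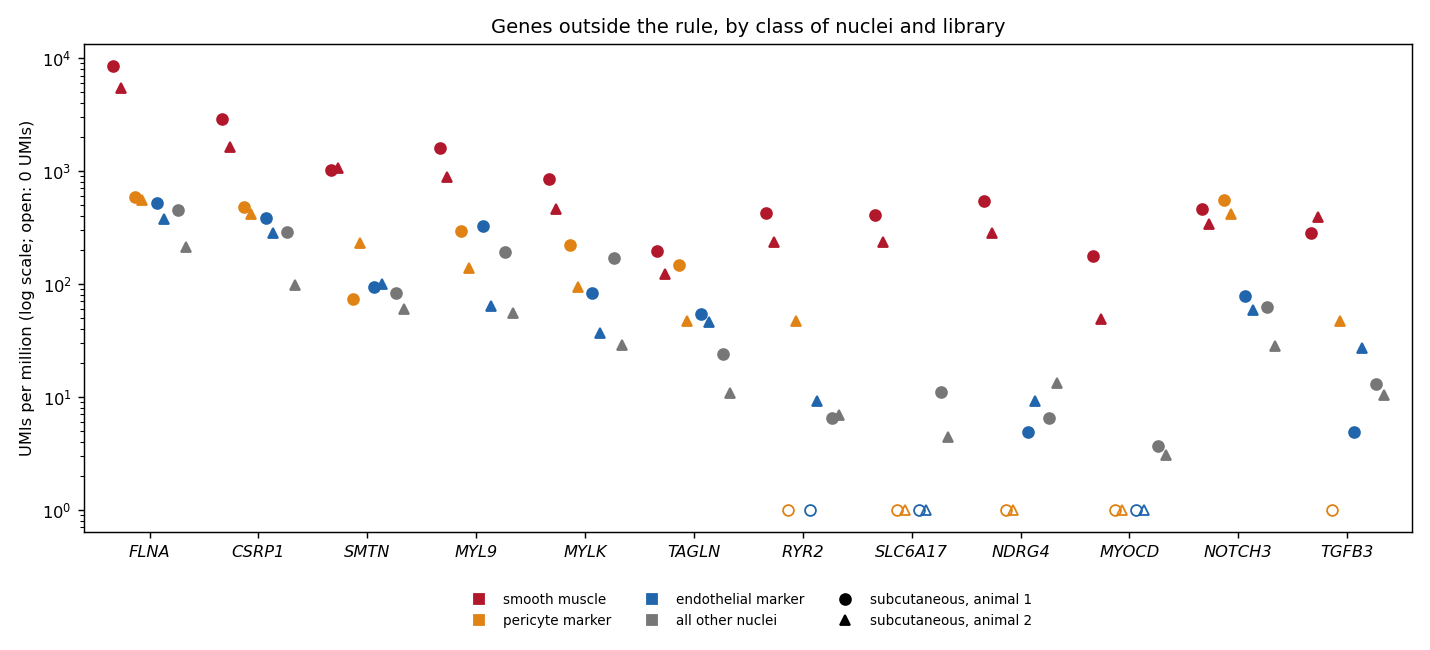
CPM (vertical log axis) of 12 genes outside the rule (horizontal axis) in the summed nuclei of each class, 1 point per subcutaneous library, with open symbols for 0 UMIs. Smooth muscle nuclei stand highest in both libraries for FLNA, CSRP1, RYR2 and NDRG4, while NOTCH3 is at a similar level in pericyte marker nuclei (551 and 419 CPM, against 459 and 341 CPM in smooth muscle nuclei).

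Of the transcription factors listed, 3 of 17 tested rose and none fell, with a median log2 fold change of 0.31. MYOCD, the myocardin gene, was counted at 10 and 6 UMIs in smooth muscle nuclei (176 and 48.7 CPM) and at 4 and 12 UMIs in all other nuclei (3.68 and 3.09 CPM). Its log2 fold change was 4.37 (SE 0.74, adjusted p = 6.25e-07), and it was at 0 UMIs in pericyte and endothelial marker nuclei of both animals. In pericyte marker nuclei 3 counts would be 110 and 140 CPM, so the 0 in animal 2 does not show a lower level there. In endothelial marker nuclei 3 counts would be 14.7 and 13.7 CPM. TBX2, a T-box factor, rose as well, with 106 and 97.4 CPM, against 15.6 and 9.52 CPM. NR2F2, an orphan nuclear receptor known for venous identity in endothelium, had 176 and 219 CPM in smooth muscle nuclei, against 94.8 and 36.5 CPM in all other nuclei (1.59, SE 0.43, adjusted p = 0.00972), a call kept in 4 of 8 blocked alternatives. With DESeq2 1 of the listed factors rose. The rise of MYOCD was the largest of the list, and its factor partner SRF stood at 70.6 and 97.4 CPM against 50.6 and 81.6 CPM, which did not pass (0.02, SE 0.53). MEF2A, MEF2C and MEF2D, shared by all muscle types, had log2 fold changes of 0.29, -0.04 and 0.23, none of which passed.

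Among calcium and potassium channel genes 5 of 19 tested rose and none fell (median log2 fold change 0.52). RYR2, a calcium release channel of the sarcoplasmic reticulum, was counted at 24 and 29 UMIs in smooth muscle nuclei, against 7 and 27 UMIs in all other nuclei. In CPM this was 424 and 235 against 6.44 and 6.95 (5.14, SE 0.50, adjusted p = 4.3e-22). KCNMB1, the beta subunit that tunes the large-conductance calcium-activated potassium channel, had 265 and 105 CPM in smooth muscle nuclei and 31.3 and 6.95 CPM in all other nuclei. CACNA1H, a T-type calcium channel, had 159 and 40.6 CPM, against 11.04 and 6.95 CPM. Both were higher in each library, and ATP2B4, a calcium pump of the plasma membrane, and CAMK2G, a calcium-dependent kinase, rose too (1.81, SE 0.47, and 1.73, SE 0.36). The calcium pump of the reticulum ATP2A2 and its regulator PLN did not pass (0.55, SE 0.35, and 0.50, SE 0.36). Both are also made by slow muscle fibres, and among nuclei with at most 5% skeletal contractile RNA PLN passed as higher by edgeR (2.88, adjusted p = 0.000297) and ATP2A2 did not. The pore subunits most often named for arterial muscle were hardly counted: CACNA1C had 1 and 4 UMIs and KCNMA1 had 0 and 3 UMIs in smooth muscle nuclei (chosen after their values were seen).

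Genes of the nitric oxide and cyclic GMP route and of vasoactive receptors rose in 6 of 17 cases, with none lower and a median log2 fold change of 1.30 against -0.16 over all tested genes. Only 17 of the 36 listed genes in the files passed the filter on low counts, which a gene can pass through the class where it is high. Without that filter 5 of 34 rose, at a median of 0.66, and with DESeq2 or with at least 500 genes per nucleus 3 rose. IRAG1, a substrate of cyclic GMP-dependent kinase at the calcium store, had 265 and 154 CPM in smooth muscle nuclei and 18.4 and 11.1 CPM in all other nuclei (3.53, SE 0.51, adjusted p = 7.73e-10). The kinase itself, PRKG1, had 247 and 300.2 CPM, against 56.1 and 33.5 CPM (2.45, SE 0.41, adjusted p = 4.28e-07). In pericyte marker nuclei IRAG1 had 0 and 4 UMIs (0 and 186 CPM) and PRKG1 had 2 and 6 UMIs (73.5 and 279 CPM). Against pericyte marker nuclei 5 genes of this list were tested and none passed. GUCY1B1, a subunit of the nitric oxide receptor, had 159 and 235 CPM, against 81.9 and 20.8 CPM. The cyclic GMP phosphodiesterase PDE5A had 194 and 138 CPM in smooth muscle nuclei and 72.7 and 15.2 CPM in all other nuclei. Thus a receptor enzyme subunit (GUCY1B1), the kinase, its target and the phosphodiesterase passed as higher. A further subunit, GUCY1A1, was not among the genes that passed, at 194 and 162 CPM in smooth muscle nuclei. Endothelial marker nuclei had 265 and 160 CPM of GUCY1A1. EDNRA, the endothelin receptor of vascular muscle, had 194 and 129.8 CPM, against 45.1 and 9.78 CPM (2.66, SE 0.51). It was also among the leading genes of a cluster with the pericyte marker KCNJ8. ROCK1, which inhibits myosin phosphatase, passed as well (1.30, SE 0.37), but in only 3 of 8 blocked alternatives, and ROCK2 did not pass (0.35, SE 0.36). The call of GUCY1B1 was lost with DESeq2, with at least 500 genes and at the limit on fibre RNA. Receptors for noradrenaline and angiotensin were next to absent from the counts: ADRA1A, ADRA1B and ADRA1D had 0 UMIs in smooth muscle nuclei of both animals, where 3 counts would be 52.9 and 24.3 CPM, and AGTR1 had 0 and 1 UMI (chosen after their values were seen).

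Of the Notch, PDGF and TGF-beta genes 4 of 25 tested rose and none fell (median log2 fold change 0.57, but 0.09 over 29 genes without the filter on low counts). NOTCH3 had 459 and 341 CPM in smooth muscle nuclei, against 62.6 and 28.05 CPM in all other nuclei (2.98, SE 0.39, adjusted p = 3.45e-12), and was found in 30.6% and 18.7% of smooth muscle nuclei and in 4.27% and 4.65% of endothelial marker nuclei. Its ligand JAG1 had 1429.6 and 730.2 CPM, against 584 and 103 CPM (1.79, SE 0.33). Endothelial marker nuclei had 1292 and 469.8 CPM of JAG1, and its call was lost with at least 3 markers and at the limit on fibre RNA. HEY2, a transcriptional target of Notch, had 176 and 89.2 CPM in smooth muscle nuclei and 21.2 and 15.7 CPM in all other nuclei. HES1, another Notch target, did not pass (0.10, SE 0.39). TGFB3, a secreted growth factor, had 282 and 389 CPM, against 12.9 and 10.3 CPM (4.64, SE 0.46, adjusted p = 3.73e-21). PDGFRB, the receptor that draws mural cells to vessels, was counted at 4 and 10 UMIs in smooth muscle nuclei, and its difference did not pass (2.06, SE 0.66, adjusted p = 0.0608).

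Matrix and integrin genes rose in 7 of 30 cases, with a median log2 fold change of 0.18. ITGA7, a laminin-binding integrin, had 600.1 and 438 CPM in smooth muscle nuclei and 128 and 129 CPM in all other nuclei, and ITGA1 rose by 1.80 (SE 0.49). ITGA8 and the basement membrane collagens COL4A5 and COL4A6 also passed, on few UMIs: 3 and 6, 7 and 7, and 2 and 6 in smooth muscle nuclei of animals 1 and 2. COL18A1 and LAMB2 rose less (1.22, SE 0.35, and 1.11, SE 0.34). The count of 7 fell to 1 with DESeq2, without a gene filter, with nuclei of at least 500 genes, with at least 3 markers or at the lower limit on fibre RNA. The dystrophin complex and caveolae list had 0 higher and 1 lower of 15 tested by edgeR, at a median of 0.02. CAVIN2, a coat protein of caveolae, was counted at 1 and 1 UMI in smooth muscle nuclei, against 236 and 199 UMIs in all other nuclei. That is a pooled level 7.87 times lower in smooth muscle nuclei (counting interval 2.17 to 65.2). Endothelial marker nuclei, which are among the other nuclei, held 120 and 104 of these UMIs. The rule bars nuclei with PECAM1 from the smooth muscle nuclei, so the fall of CAVIN2 is partly set by it and is a description. CAV1 and CAVIN1 did not pass (-0.44, SE 0.33, and 0.54, SE 0.33). DTNA, also of this list, passed as higher by edgeR only with at most 5% skeletal contractile RNA (2.75, adjusted p = 6.24e-05) or with at least 500 genes (1.22, adjusted p = 0.0497).

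Outside the lists, the largest changes among genes of at least 50 CPM were of several kinds. SLC6A17, a neutral amino acid transporter, had 406 and 235 CPM in smooth muscle nuclei and 11.04 and 4.37 CPM in all other nuclei (5.20, SE 0.50, adjusted p = 2.31e-22). NDRG4 had 547 and 284 CPM, against 6.44 and 13.4 CPM (4.83, SE 0.44, adjusted p = 6.7e-25). RASL11A, a Ras-like GTPase, had 459 and 511 CPM, against 54.3 and 10.3 CPM (4.13, SE 0.41). RASL11A stood at 625 and 186 CPM in pericyte marker nuclei, higher in animal 1 than in smooth muscle nuclei. MKX, the homeobox gene mohawk of tendon and connective tissue, was counted at 6 and 7 UMIs in smooth muscle nuclei, against 1 and 3 UMIs in the far larger group of other nuclei, a pooled ratio of 89.8 (counting interval 27.8 to 378). The secreted protein gene C1QTNF7, the Ras-like gene RERGL and TENT5B followed with log2 fold changes of 4.47, 4.19 and 4.24, each on 5 to 14 UMIs per animal in smooth muscle nuclei. RERGL overlaps PIK3C2G, and TGFB3 overlaps IFT43, in the gene table of a later assembly, so UMIs of such pairs may be shared.

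Genes lower in smooth muscle nuclei included markers of adipocytes, fibroblasts and muscle fibres. Adipocyte markers fell in 2 of 13 cases and rose in none: PLIN1 and LIPE, a lipid droplet coat protein and the hormone-sensitive lipase, had 13 and 0 and 10 and 0 UMIs in smooth muscle nuclei. PNPLA2, the lipase that starts fat breakdown, had 212 and 24.3 CPM, against 590.0 and 116 CPM (-1.97, SE 0.46). Fibroblast markers fell in 3 of 10 cases, MFAP5, DCN and FBN1, and the 11 blood endothelial markers tested had a median of -1.04 with none past the threshold. The rule removes nuclei with PDGFRA, PECAM1 or CSF1R UMIs from the smooth muscle nuclei and leaves them among the others, so lower fibroblast, endothelial and macrophage markers are partly set by it and are a description. Skeletal contractile genes fell in 8 of 24 cases and rose in none, with a median of -0.76. The largest falls besides CAVIN2 were in IER3, an early response gene (1 and 3 UMIs against 217 and 330, a pooled level 4.95 times lower, counting interval 1.92 to 18.2), and SLC1A3, a glutamate transporter (-2.40, SE 0.58). ALDH1A1, which makes retinoic acid, fell as well, with 3 and 1 UMIs against 168 and 228 (pooled level 3.58 times lower, 1.39 to 13.2). IGFBP3, a binding protein of insulin-like growth factors, had 459 and 73.02 CPM in smooth muscle nuclei and 1365 and 248 CPM in all other nuclei (-1.90, SE 0.38). Endothelial marker nuclei, which are among the others, had 4907 and 3001 CPM of IGFBP3, so its fall is partly set by the rule too. COL5A3, a fibrillar collagen chain, had 988 and 8.11 CPM, against 2198 and 107 CPM (-1.79, SE 0.38). With DESeq2 the calls of CAVIN2, IER3, SLC1A3, ALDH1A1 and PNPLA2 were lost. TCIM, RCSD1 and SSB also fell, with log2 fold changes of -2.22, -2.02 and -2.04, calls lost with DESeq2 too. TCIM had 246 and 1382 CPM in endothelial marker nuclei, so the same limit holds for it. Immediate early and heat shock genes had a median of -0.68 over 17 tested, and only IER3 passed. With at most 5% skeletal contractile RNA 3 of 17 fell by edgeR, among them JUN (-1.41, adjusted p = 0.0345) and HSPA1A (-1.45, adjusted p = 0.0450). At 300 UMIs per nucleus 2 of 16 fell, and with DESeq2 0 of 17.

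RNA of other cell types was present in smooth muscle nuclei. Blood endothelial markers took 0.139% and 0.0422% of the UMIs of smooth muscle nuclei, against 0.736% and 0.688% in endothelial marker nuclei, with PECAM1 at 0 by the rule. The share was 0.251% and 0.0684% in all other nuclei. Adipocyte markers took 0.628% and 0.0300%, against 0.898% and 0.0523% in all other nuclei, and ADIPOQ was at 0 in smooth muscle nuclei of both animals. Fibroblast markers took 0.665% and 0.134% in smooth muscle nuclei and 1.10% and 0.110% in all other nuclei, with PDGFRA at 0 by the rule and DPP4 at 0 in both animals. In animal 1 these adipocyte and fibroblast shares compare with 1.07% for the 7 markers of the rule. Animal 1 thus held more adipocyte and fibroblast RNA in every class, and animal 2 more fibre RNA. Skeletal contractile genes took over 5% of UMIs in 14 of 62 and 162 of 166 smooth muscle nuclei. Markers of T and NK cells were 0 of 8 and 1 of 8 detected, those of satellite cells 1 of 7 and 2 of 7, those of Schwann cells 1 of 7 and 2 of 7, those of lymphatic endothelium 3 of 6 in each, and those of macrophages 6 of 10 and 2 of 10.

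**Figure D4:**
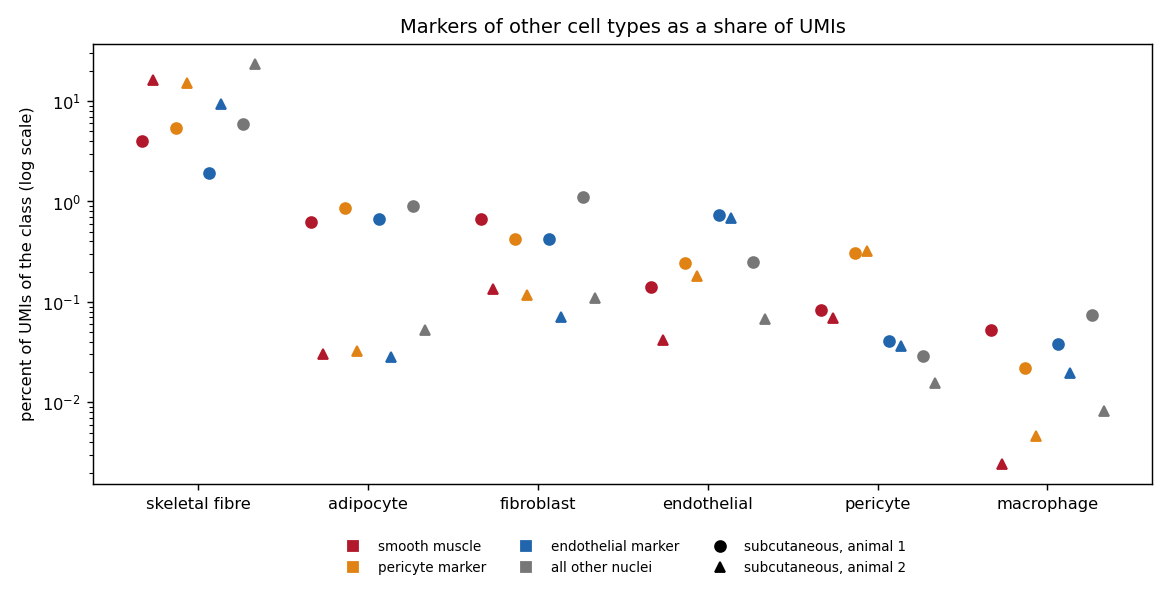
Share of the UMIs of a class of nuclei (vertical log axis, percent) taken by the marker list of another cell type (horizontal axis), 1 point per subcutaneous library. Skeletal fibre genes take the most in smooth muscle nuclei (4.0% in animal 1 and 16.4% in animal 2), and the pericyte share of smooth muscle nuclei (0.0830% and 0.0698%) lies between those of pericyte marker nuclei and of all other nuclei.

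Smooth muscle nuclei also carried some pericyte markers. RGS5, an inhibitor of G protein signalling and a classic pericyte gene, had 300.04 and 292 CPM in smooth muscle nuclei and 53.4 and 27.02 CPM in all other nuclei (2.74, SE 0.41, adjusted p = 6.01e-09). It was found in 19.4% and 17.5% of smooth muscle nuclei, 40% and 56.5% of pericyte marker nuclei, whose rule uses it, and 8.55% and 9.88% of endothelial marker nuclei. CSPG4, the proteoglycan NG2, rose too, with 229 and 105 CPM, against 53.4 and 26.2 CPM. Of the 10 pericyte markers listed 6 passed the filter on low counts, which a gene can pass through the class where it is high. These 2 passed the threshold, and all 6 had log2 fold changes above 0. NDUFA4L2 was at 0 UMIs in smooth muscle nuclei of both animals, and HIGD1B and STEAP4 in those of animal 1. Pericyte markers together took 0.0830% and 0.0698% of UMIs in smooth muscle nuclei, 0.305% and 0.321% in pericyte marker nuclei, and 0.0292% and 0.0156% in all other nuclei.

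Smooth muscle nuclei were then set against pericyte marker nuclei. These held only 27208 and 21491 UMIs, and the class differed between the animals. The cluster with KCNJ8 among its leading genes held 8 of the 15 in animal 1 and 0 of the 23 in animal 2. Of these 23, 10 lay in the cluster with most smooth muscle nuclei. A cluster led by UBE2C, PLPP7 and ARL11 held 7, and an endothelial cluster 4. In animal 1 that endothelial cluster held 2 of the 15, and another, led by GRP and GPIHBP1, held 3. Of 749 genes tested, 27 passed (3.6%), 18 higher (2.4%) and 9 lower (1.2%) in smooth muscle nuclei, by the same edgeR fit. Contractile genes made up 6 of the 18: FLNA, SMTN, ACTN1, MYL9, CSRP1 and MYLK rose among 19 listed genes tested, none fell, and the median log2 fold change was 0.97 against 0.14 over all tested genes. Smooth muscle nuclei had to hold MYH11 or CNN1, and pericyte marker nuclei had to hold neither. A gap in related contractile genes is thus partly set by the rules and is not independent support for the label. FLNA had 8472 and 5444 CPM in smooth muscle nuclei, against 588 and 558 CPM in pericyte marker nuclei (3.75, SE 0.76, adjusted p = 9.13e-05). SMTN had 1024 and 1071 CPM, against 73.5 and 233 CPM (3.0, SE 0.71, adjusted p = 0.0017), on 2 and 5 UMIs in pericyte marker nuclei. CALD1 and VCL, which had passed against all other nuclei, had 1588 and 819 CPM, against 1176 and 1163 CPM, and 724 and 803 CPM, against 551 and 1070.2 CPM, and did not pass here (0.15, SE 0.60, and 0.13, SE 0.57). The actin-severing protein gene DSTN, outside the lists, had 2241 and 2036 CPM in smooth muscle nuclei and 221 and 139.6 CPM in pericyte marker nuclei (3.73, SE 0.75, adjusted p = 9.13e-05).

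Other genes higher than in pericyte marker nuclei had few or no UMIs there. NDRG4 had 31 and 35 UMIs in smooth muscle nuclei and 0 and 0 in pericyte marker nuclei, so that with 3 counts per library as the limit it was at least 2.03-fold higher. CKB, the brain-type creatine kinase, had 54 and 61 UMIs, against 0 and 1 (pooled ratio 31.1, counting interval 5.48 to 1240). TGFB3 had 16 and 48 UMIs, against 0 and 1 (pooled ratio 17.3, 3.0 to 695), and WSB1 33 and 33 UMIs, against 1 and 1 (pooled ratio 8.93, 2.38 to 75.3). JAG1 had 1429.6 and 730.2 CPM in smooth muscle nuclei, against 257 and 139.6 CPM in pericyte marker nuclei (2.62, SE 0.68, adjusted p = 0.00558). RANBP2 and SLC4A7 rose as well (2.84, SE 0.73, and 2.74, SE 0.79). NOTCH3 did not pass, at 459 and 341 CPM in smooth muscle nuclei and 551 and 419 CPM in pericyte marker nuclei (-0.10, SE 0.62).

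Genes lower than in pericyte marker nuclei included THBS4, a matrix thrombospondin, with 35.3 and 40.6 CPM, against 368 and 698 CPM (-3.64, SE 0.95, adjusted p = 0.00585). GNG11, CCL14, PDK4, NRP1, CLEC3B and FABP5 fell by 1.92 to 2.35 on the log2 scale. Endothelial marker nuclei also had more of each than smooth muscle nuclei, such as CCL14 (1007 and 1058 CPM) and CLEC3B (1552 and 1127 CPM). Blood endothelial markers took 0.246% and 0.181% of UMIs in pericyte marker nuclei and 0.139% and 0.0422% in smooth muscle nuclei. The part of endothelial RNA in these falls was not tested. APOE had 194 and 203 CPM, against 3455 and 279 CPM (-2.35, SE 0.68), and within animal 2 alone its log2 ratio was 0.31 after scaling, so that animal 1 decides it. The soluble guanylate cyclase subunits GUCY1A1 and GUCY1B1 did not pass, at 194 and 162 CPM against 404 and 558 CPM, and 159 and 235 CPM against 478 and 605 CPM (-1.27, SE 0.63, and -1.29, SE 0.63). No gene passed in this comparison with edgeR without the library block (38 with unadjusted p under 0.05) or in nuclei of at least 500 genes (55), and DESeq2 called 2 higher, DSTN and FLNA.

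Smooth muscle nuclei of the animals were set side by side by size alone, since each animal gave 1 library. Of 1639 genes with at least 20 UMIs, 93 (5.67%) had at least 4 times the CPM in animal 2, and 54 (3.29%) in animal 1. The 93 held 10 skeletal contractile genes, among them MYH1 at 15131 CPM in animal 2 and 282 CPM in animal 1, a ratio of 53.6 (counting interval 32.9 to 93.9). Of the 93, 64 also differed at least 2-fold the same way in endothelial marker nuclei. Some of the 93 rest on few UMIs, such as ERH with 2 UMIs in animal 1 and 18 in animal 2 (ratio 4.14, counting interval 0.99 to 36.8). The 54 higher in animal 1 held 6 adipocyte and 3 fibroblast markers, such as FABP4 with 89.2 CPM in animal 2 and 2418 CPM in animal 1. Of the 54, 31 differed at least 2-fold the same way in endothelial marker nuclei. The share of all 1639 genes that differed so in endothelial marker nuclei was not worked out, so these counts have no background beside them. A difference that endothelial marker nuclei did not share was in HOXA9, a homeobox gene of positional identity, with 25 UMIs in animal 2 and 1 in animal 1, a ratio of 11.5 (1.88 to 472), while endothelial marker nuclei had 95.8 CPM in animal 2 and 98.2 CPM in animal 1 (chosen after its values were seen). The 7 markers of the rule differed by less than 2-fold between the animals, with ratios of animal 2 over animal 1 from 0.568 for LMOD1 to 1.78 for PDZRN4.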

How the data were processed

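Nuclei of 4 libraries were sequenced with the 10x Genomics kit of chemistry 3.1, per the labels. Per the file headers, the authors counted with Cell Ranger 6.0.1. The deposited values are raw UMI counts per gene and barcode over 21861 genes, 4251 of them without a name. The submitters' processing notes name the build ARS-UCD1.2. No source used here gives the annotation or says whether introns were counted, and no coordinates are printed because the gene table at hand is for a later assembly and served only to find overlapping genes.

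Kept nuclei had at least 200 genes. Members, lists, classes and the rule for naming genes were chosen with earlier results of these data known. UMIs were summed per library and class and tested with edgeR 4.0.16 in R 4.3.3 (filterByExpr, TMM, glmQLFit and glmQLFTest, library as a block, Benjamini-Hochberg). The adjustment ran over all genes fitted, those of the rules included. Genes of the rules were then left out of the counts of genes tested and passed. The SE is the absolute log2 fold change over the square root of F. The sums compared within a library come from different nuclei but share that library, so the block follows from the design. Deviations of sums of the same library correlated at 0.414 over 10674 genes against other nuclei and at 0.425 over 2198 genes against pericyte marker nuclei. For each direction, the text names at most 10 genes past the threshold, those that changed most, with the same sign in both libraries and at least 50 CPM in the higher class, the 5 members of each list with the highest mean CPM, and MYOCD, RGS5, NOTCH3, PDGFRB, TAGLN and DES. Other list members with values were chosen after these were seen. Clusters came from scanpy 1.11.5 and igraph 0.11.9 (2000 variable genes, 30 components, 15 neighbours, Leiden resolution 1.0). No doublet caller was run. A limit for a count of 0 is 3 counts, and intervals cover counting error only. On simulated counts the test recovered 76.5% of 8-fold changes against other nuclei and 100% against pericyte marker nuclei. For 4-fold changes it recovered 41.5% and 91.2%. It also called 3 and 7 unchanged genes at 8-fold, and 1 and 10 at 4-fold. The simulation used a fixed spread, not that of these data, and counted only genes that passed the filter. These shares thus do not give the power of the tests reported here. Alternatives were no block, DESeq2 1.42.0 (its size factors, or its test), no gene filter, stricter filters on nuclei and markers, thinning to 300 UMIs and leaving out a library. One gene that the naming rule selects is not reported here.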

Additional observations from a re-analysis of the deposited data

How the results depend on the processing

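Against all other nuclei, the 184 higher and 58 lower genes became 0 and 0 without the library block, 93 and 11 with DESeq2, 108 and 37 with at least 3 markers, 89 and 27 with at most 5% skeletal contractile RNA, and 95 and 15 at 300 UMIs per nucleus. With at least 500 genes per nucleus 92 were higher. All 184 and 58 genes kept their sign without the block. With DESeq2's size factors the split was 184 to 45. FLNA, CSRP1, RYR2, NDRG4, MYOCD, NOTCH3, TGFB3 and RGS5 passed in every blocked fit that tested them. Against pericyte marker nuclei, the 18 higher and 9 lower became 0 and 0 without the block or with at least 500 genes, 2 and 0 with DESeq2, 9 and 3 without a gene filter, 3 and 0 with at most 5% skeletal contractile RNA and 5 and 1 at 300 UMIs. With at least 3 markers 17 were lower. DESeq2 shifted the median of all genes there by 0.11. Without the block 245 and 38 genes had an unadjusted p under 0.05. With DESeq2 52 and with the limit on skeletal RNA 26 had one against pericyte marker nuclei. The share of smooth muscle nuclei was 3.18% and 1.34% with at least 3 markers, and 3.86% and 1.48% at 300 UMIs, in animals 1 and 2. In animal 2 it was 5.56% with at least 500 genes and 5.80% with at most 5% skeletal RNA. In intramuscular fat of animal 1 it was 0% with 3 markers or at 300 UMIs. TPM2 reversed to 1.64 at the limit on skeletal RNA, and APOE to 0.31 without replicate 1 (-3.71 without replicate 2). The cause of these shifts was not tested. The limit on skeletal RNA leaves 4 smooth muscle nuclei in animal 2, and at the depth used, few UMIs per gene bound what can be seen. Without 1 library there is no test.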
